A study of Mus musculus with 12 samples.

Results

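The genes described here are 9 claudins (Cldn1, Cldn2, Cldn3, Cldn4, Cldn5, Cldn7, Cldn12, Cldn14 and Cldn18) and occludin (Ocln), 10 of 17097 genes with a named probe set on the array. Each was read from probe sets that carry its name alone, 15 in all. In each tissue the probe set with the highest mean over 6 arrays stood for the gene, and this was the same probe set in both tissues for all 10. Messenger RNA was measured on 12 Affymetrix mouse arrays, 6 of adult liver and 6 of perinatal lung, all from mice on the C57BL/6 background. The liver came from female mice aged 1.5 months, 3 Abcb11-/- and 3 wild type (WT). Abcb11 is the transporter that moves bile salts out of hepatocytes into bile, and mice without it are a model of cholestasis, which is bile retained in the liver. The lungs were taken at embryonic days 17.5 and 18.5 (E17.5, E18.5) and on the day of birth (N0), with 1 array per stage for offspring of an Abcb11-/- mother mated to a WT male and 1 for offspring of a WT mother mated to an Abcb11-/- male. All lung donors were therefore Abcb11+/-, and the groups differed in which parent lacked Abcb11. The sources count several lungs per mother at E18.5 and N0, without saying how these map to the single array of each.

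Claudins and occludin are membrane proteins of the tight junction, the belt that joins neighbouring epithelial or endothelial cells and limits what passes between them. Claudins build the strands of the junction and set its selectivity. Some seal it (Cldn1, Cldn3, Cldn4, Cldn5), whereas Cldn2 forms pores for small cations and water. Occludin lies in the same strands and takes part in their regulation. Scaffold proteins such as the zonula occludens and cingulin families tie the strands to the actin cytoskeleton. In liver these junctions separate bile in the canaliculi from blood, and in lung they separate the air spaces, filled with fluid before birth, from the tissue beneath.

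To show the genomic context of the 4 genes that were at least 1.5-fold higher at N0 than at E18.5 with a WT mother (below), the 250 bases before the outermost RefSeq start of each are printed, read 5′ to 3′ on the strand of the gene (GRCm38.p6). Capitals mark matches, on either strand, to the GC box GGGCGG, the TATA box TATAAA, the E-box CACCTG or the AP-1 sequence TGACTCA.
Cldn3, chr5:134985964-134986213, plus strand: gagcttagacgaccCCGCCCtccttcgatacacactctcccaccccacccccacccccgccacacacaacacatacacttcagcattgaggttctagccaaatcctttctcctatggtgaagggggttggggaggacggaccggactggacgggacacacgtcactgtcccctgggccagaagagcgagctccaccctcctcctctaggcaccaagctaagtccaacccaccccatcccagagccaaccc
Cldn4, chr5:134946935-134947184, minus strand: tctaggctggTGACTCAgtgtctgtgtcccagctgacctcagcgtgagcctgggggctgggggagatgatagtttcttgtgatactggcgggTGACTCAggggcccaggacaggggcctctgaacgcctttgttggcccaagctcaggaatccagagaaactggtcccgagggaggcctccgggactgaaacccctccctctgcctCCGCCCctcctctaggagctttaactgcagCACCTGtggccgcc
Cldn7, chr11:69964529-69964778, plus strand: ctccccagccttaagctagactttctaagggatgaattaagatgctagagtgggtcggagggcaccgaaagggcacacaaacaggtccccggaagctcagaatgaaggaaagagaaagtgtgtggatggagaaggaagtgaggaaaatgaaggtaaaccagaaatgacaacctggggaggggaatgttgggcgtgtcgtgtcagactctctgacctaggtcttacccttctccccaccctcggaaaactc
Ocln, chr13:100552719-100552968, minus strand: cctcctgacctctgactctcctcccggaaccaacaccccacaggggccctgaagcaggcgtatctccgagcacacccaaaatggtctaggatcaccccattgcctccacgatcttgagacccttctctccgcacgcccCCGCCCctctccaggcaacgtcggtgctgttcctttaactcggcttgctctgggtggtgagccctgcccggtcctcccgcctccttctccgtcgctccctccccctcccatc
Of the 10 promoters, 5 held a GC box (26.8% of 19827 promoters of the same length), 1 a TATA box (14.9%), 1 the E-box (17.2%) and 1 the AP-1 sequence (4.86%). The grainyhead site AACCGGTT was also sought and was in 0 of the 10 (0.101%). Cldn4, which had the widest range in lung, was the member with the AP-1 sequence, at 240 and 158 bases before the start, and with the E-box, 14 bases before it. Any part of these sequences in the lung values was not tested. Cldn7 had none of the motifs sought in this window, and GC content ran from 42.0% for Cldn12 to 64.0% for Ocln. Cldn4 and Cldn3 are adjacent on chromosome 5, with 0 annotated genes between them. RefSeq lists 2 starts for Cldn7 and 2 for Ocln, and only the outermost is shown.

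Values are log2 array signals as deposited, so a difference of 1 is a doubling. They are not levels that can be set against each other between genes, because probe sets differ in brightness. The array medians were 3.15 to 3.18 in liver and 3.63 to 3.68 in lung, and levels were not compared between the tissues. A gene is called dim in a tissue where all of its 6 values lay under 4. Abcb11 itself was at 2.90, 3.14 and 3.26 in Abcb11-/- livers, against 11.22, 11.04 and 10.88 in WT livers, as the labels state. The lung array of E17.5 with an Abcb11-/- mother stood apart: 8 of 10 hepatocyte markers and 9 of 9 skeletal muscle markers were at least 1.5-fold higher on it than on the E17.5 array with a WT mother (median log2 differences 4.13 and 4.22).

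Ocln was higher in cholestatic liver. It was at 8.85, 8.45 and 8.80 in Abcb11-/- livers, against 7.71, 7.98 and 7.61 in WT livers, so every Abcb11-/- liver lay above every WT liver. The means were 8.70 ± 0.22 in Abcb11-/- and 7.77 ± 0.19 in WT livers (SD, n = 3 each), a log2 difference of 0.93 (95% interval 0.60 to 1.27) or 1.91-fold. By limma, a linear model over all genes whose p-values were adjusted by the Benjamini-Hochberg method, the adjusted p was 0.0101, and Ocln was the only 1 of the 10 members to rise past the threshold of 0.05. None fell, whereas 4.33% of all 17097 genes rose and 2.91% fell. The call for Ocln was lost without WT replicate 1 (log2 difference 0.91, adjusted p = 0.0504 by limma). In tissue pieces such as these, a change in the number of cells of a type and a change in RNA per cell cannot be told apart. The p-values set each difference against the spread between livers of the same genotype.

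Cldn7, a claudin of simple epithelia that binds the adhesion molecule Epcam, had the largest difference of the members. It was at 5.05, 3.57 and 4.12 in Abcb11-/- livers, and at 2.73, 2.95 and 2.99 in WT livers. The WT values were all under 4 and close together, while the Abcb11-/- values spread over 1.5 units and lay above them all. The log2 difference was 1.36 (95% interval 0.59 to 2.12), with an adjusted p of 0.0511 by limma. The WT values lay below the array medians, so no fold is given against them. Leaving out Abcb11-/- replicate 1 gave a log2 difference of 0.96 (adjusted p = 0.0187) and leaving out replicate 2 gave 1.70 (adjusted p = 0.0114, both limma), while without any 1 of the other 4 livers the adjusted p by limma was between 0.117 and 0.157.

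Cldn4, a sealing claudin, was dim in all 6 livers, at 3.60, 3.36 and 3.63 in Abcb11-/- livers and 3.15, 3.25 and 3.24 in WT livers. These values did not overlap, but the difference of 0.32 did not pass the test (adjusted p = 0.114, limma). Cldn1, the sealing claudin of hepatocytes and bile ducts, was at 9.71, 9.07 and 10.17 in Abcb11-/- livers and 9.03, 9.07 and 8.37 in WT livers. Its groups touched at 9.07, and the log2 difference of 0.83 (SE 0.30) had an adjusted p of 0.154 by limma. The second Cldn1 probe set, which is dimmer, gave a difference of 0.89 with the same overlap. Without Abcb11-/- replicate 2 the adjusted p-values by limma were 0.0471 for Cldn4 and 0.0379 for Cldn1, so that 4 members passed, against 2 without Abcb11-/- replicate 1 and 0 without WT replicate 1. The calls over all genes moved as well: leaving out 1 liver at a time gave 315 to 888 genes higher, against 740 with all livers.

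Abcb11-/- replicate 2 was the lowest of the 3 knockout livers for Ocln, Cldn7, Cldn4, Cldn1, Cldn3 and Cldn12, 6 of the 10 members, compared with 31.5% of all genes. It also had the highest summed signal of 8 pericentral hepatocyte markers, genes of hepatocytes around the central vein (14762, against 9588 and 10059 in replicates 1 and 3). The same held for 6 periportal markers, of the opposite zone (24381, against 21039 and 21732), and for 7 leukocyte and macrophage markers (3037, against 1330 and 2305). In the leukocyte list replicate 3 was the nearer to it, and replicate 1 lay within the WT range of 1113 to 1558.

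**Figure D1:**
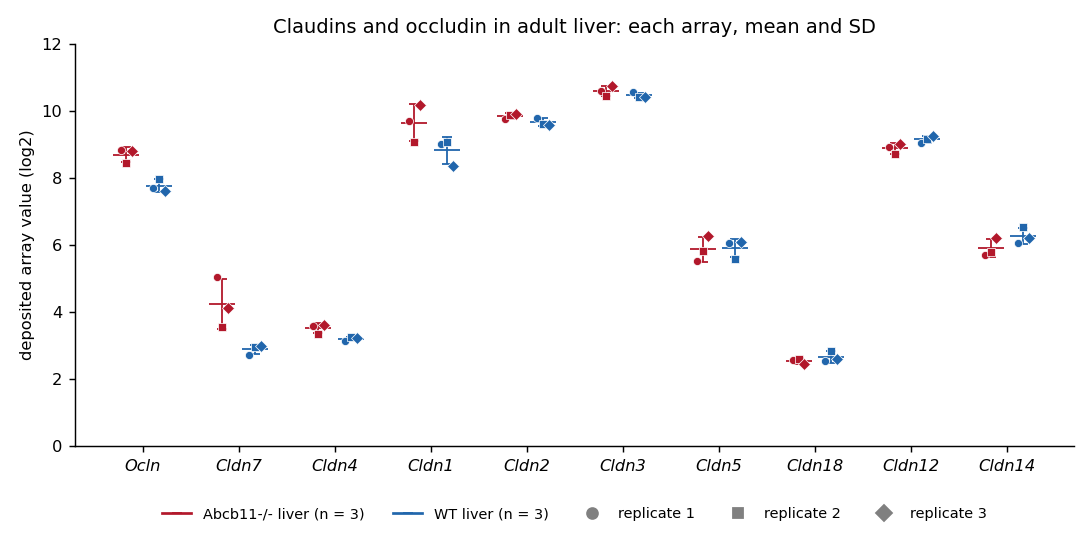
Deposited log2 values (vertical axis) of the 10 genes in adult liver, with Abcb11-/- arrays on the left and WT arrays on the right of each gene, 1 point per array and its replicate number by shape, and the mean and SD of 3. Ocln, Cldn7 and Cldn4 lie above WT on all 3 Abcb11-/- arrays, with replicate 2 the lowest of the 3 in each.

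Like Cldn1, Cldn2 and Cldn3 did not pass the test in either direction. Cldn2, which makes cation pores, was at 9.76, 9.89 and 9.90 in Abcb11-/- livers and 9.80, 9.62 and 9.57 in WT livers (log2 difference 0.19, 95% interval -0.04 to 0.41, limma adjusted p = 0.332). Cldn3, a sealing claudin, was at 10.61, 10.45 and 10.74 in Abcb11-/- livers and 10.56, 10.42 and 10.41 in WT livers (difference 0.14, 95% interval -0.11 to 0.38). Both intervals exclude a doubling. Cldn12, a claudin without the usual scaffold-binding tail, was at 8.93, 8.71 and 9.02 in Abcb11-/- livers and 9.05, 9.17 and 9.24 in WT livers. All 3 Abcb11-/- values of Cldn12 lay below the WT values, with a difference of -0.27 (adjusted p = 0.212, limma), and its second probe set showed the same order (-0.20, no overlap). Over all genes, 13.8% had all 3 Abcb11-/- arrays above all WT arrays and 12.1% all below, compared with 3 (Ocln, Cldn7, Cldn4) and 1 (Cldn12) of the 10 members.

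Of the other members, Cldn14, a claudin known for its part in the inner ear and kidney, was at 5.71, 5.80 and 6.22 in Abcb11-/- livers and 6.07, 6.53 and 6.21 in WT livers, which overlapped (difference -0.36, adjusted p = 0.278). Cldn5, the claudin of endothelium, was at 5.54, 5.82 and 6.27 in Abcb11-/- livers and 6.05, 5.60 and 6.09 in WT livers (difference -0.04, adjusted p = 0.949, both limma). Cldn18, a claudin of stomach and alveolar epithelium, was dim in all livers, between 2.45 and 2.61 in Abcb11-/- livers and between 2.54 and 2.85 in WT livers. Over the 10 members the median log2 difference was 0.16, beside 0.0033 over all genes.

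Among 32 other tight junction genes on the array, 8 rose in Abcb11-/- livers and 0 fell (4.33% and 2.91% of all genes). The list was chosen with earlier results of these data known, so this count describes the list and does not test it. Those with the largest differences were Cxadr, an adhesion receptor of the junction (log2 difference 1.46, adjusted p = 0.00256), Cgn, the plaque protein cingulin (1.44, 0.0169), Tjp3, the scaffold ZO-3 (1.00, 0.00406), Ybx3, a Y-box protein that binds scaffolds of the junction (0.98, 0.00472), and Ildr2, of the angulin family of tricellular junctions (0.82, 0.0229; adjusted p by limma in each case). Cxadr was at 9.31, 8.81 and 9.17 in Abcb11-/- livers and 7.80, 7.67 and 7.43 in WT livers. Cgn was at 6.28, 6.22 and 6.72 in Abcb11-/- livers and 5.39, 5.11 and 4.39 in WT livers. In both genes the Abcb11-/- values lay above all WT values, by a wide gap. The median over the 32 genes was 0.20. The count of 8 was 5 without WT replicate 1, 3 without WT replicate 2 and 4 without Abcb11-/- replicate 3. Leaving out 1 liver at a time, it ran from 3 to 11, and the number over all genes from 315 to 888.

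**Figure D2:**
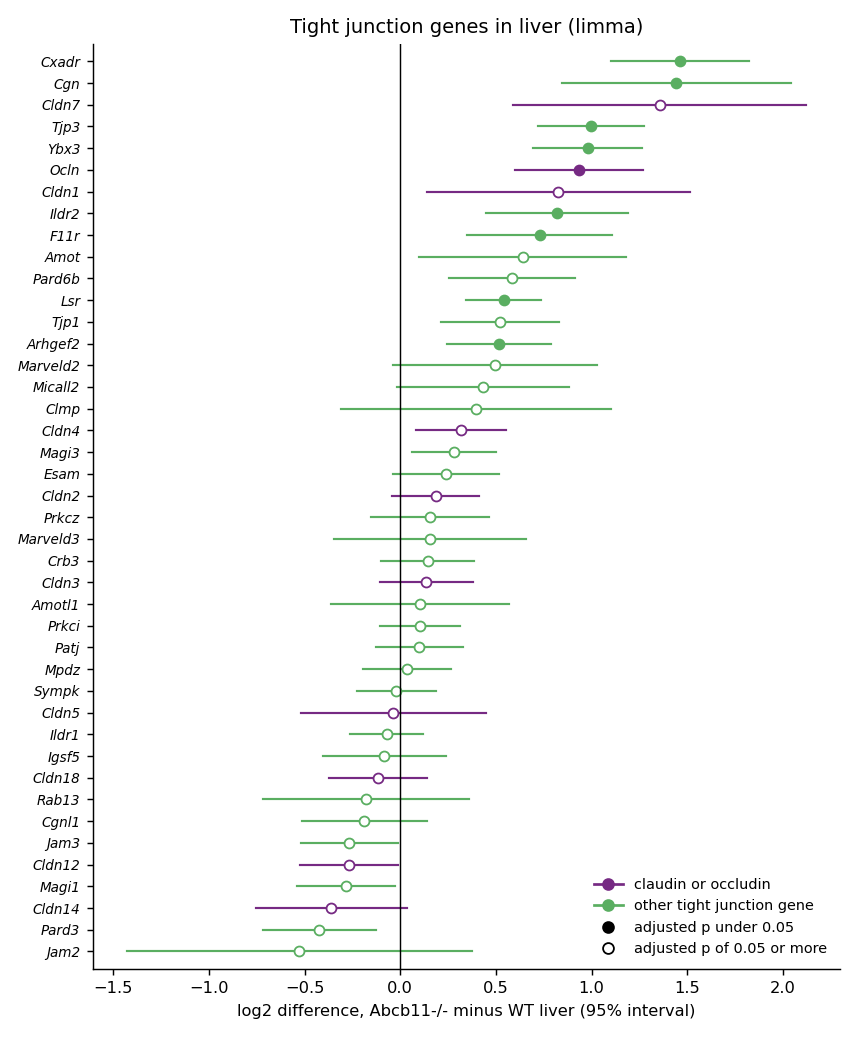
Log2 difference between Abcb11-/- and WT liver (horizontal axis) with its 95% interval from limma, for the 10 claudins and occludin and 32 other tight junction genes, with filled points for an adjusted p under 0.05. Ocln is the filled point among the members, at 0.93, and Cldn7 at 1.36 has the widest interval of the members.

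Junctions of other kinds and markers of other cell types were set beside these values. Over all genes, 4.33% rose and 2.91% fell. Of 11 adherens and gap junction genes, Cdh1 (E-cadherin, 1.53) and Ctnna1 (alpha-catenin, 0.55) rose and Gja1 (a connexin of gap junctions, -0.55) fell. Of 10 bile duct markers, 4 rose: Krt23 (2.69), Cd24a (1.81), Sox9 (1.15) and Epcam (0.67). Aqp1 (-0.44), Muc1 (-0.08), Slc4a2 (-0.02) and Cftr (-0.01) were lower, with groups that overlapped and no call. The defining duct keratin Krt19 was at 4.38, 3.99 and 3.66 in Abcb11-/- livers and 3.31, 3.90 and 3.76 in WT livers, which overlapped. The summed signal of the duct list was 1200 to 1289 in Abcb11-/- livers and 925 to 1142 in WT livers. Aqp1, the brightest of the list (mean 9.67 in WT livers), weighs most in that sum. The part of the duct list in the values of Ocln and Cldn7 was not tested. Of 10 hepatocyte markers, 0 passed the adjusted test in either direction, with differences from -0.96 (Apob) to 1.74 (Afp). Of 8 pericentral markers 5 fell, and of 6 periportal markers 2 rose, Hal (0.51) and Cdh1, which was also counted above. Periportal Pck1 (-0.78) and Arg1 (-0.17) lay below all WT values in Abcb11-/- livers, without passing the test. Of 15 endothelial markers 1 fell, and of 7 leukocyte and macrophage markers 2 rose.

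In lung, Cldn1 and Cldn5 followed the stage with either mother. Cldn1 was at 6.66, 6.08 and 5.34 at E17.5, E18.5 and N0 with an Abcb11-/- mother, and at 6.51, 6.01 and 5.29 with a WT mother. The values were thus lower at each later stage, with the lines of the mothers at most 0.15 apart. In a limma model of stage and mother over the 6 arrays, the log2 difference was -0.54 (SE 0.13, adjusted p = 0.192) for E18.5 against E17.5 and -0.73 (SE 0.13, adjusted p = 0.189) for N0 against E18.5. The second Cldn1 probe set was dim in lung and did not show this order. It was at 3.604, 3.867 and 3.785 with an Abcb11-/- mother and 3.624, 3.630 and 3.421 with a WT mother. Cldn5, of endothelial cells, was at 8.94, 9.51 and 9.86 with an Abcb11-/- mother and 8.97, 9.71 and 9.81 with a WT mother. Its difference between E18.5 and E17.5 was 0.65 (SE 0.14) with an adjusted p of 0.170, which was 0.0373 with a variance prior that is both robust and follows the mean level (limma in both). Of 15 endothelial markers, 6 were higher at E18.5 than at E17.5 at an unadjusted limma p under 0.05 (7.02% of all genes) and 0 passed the adjusted test. Their median difference was 0.40, and their part in the values of Cldn5 was not tested.

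No member passed the adjusted test in any lung contrast. At E18.5 against E17.5, 0.0526% of all genes were called higher and 0.00585% lower, and for N0 against E18.5 and for the mother over all stages both shares were 0.0%. With 2 residual degrees of freedom the fit missed many genes set 2-fold apart in simulated data. It found 23% of those set 2-fold apart and 83% of those set 4-fold apart for E18.5 against E17.5, 12% and 72% for N0 against E18.5, and 48% and 78% for the mother. At an unadjusted p under 0.05, 1 member was higher and 1 lower at E18.5 than at E17.5 (7.02% and 5.79% of all genes), 4 were higher and 1 lower at N0 than at E18.5 (5.19% and 7.08%), and 0 differed with the mother over all stages (2.76% and 2.31%).

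**Figure D3:**
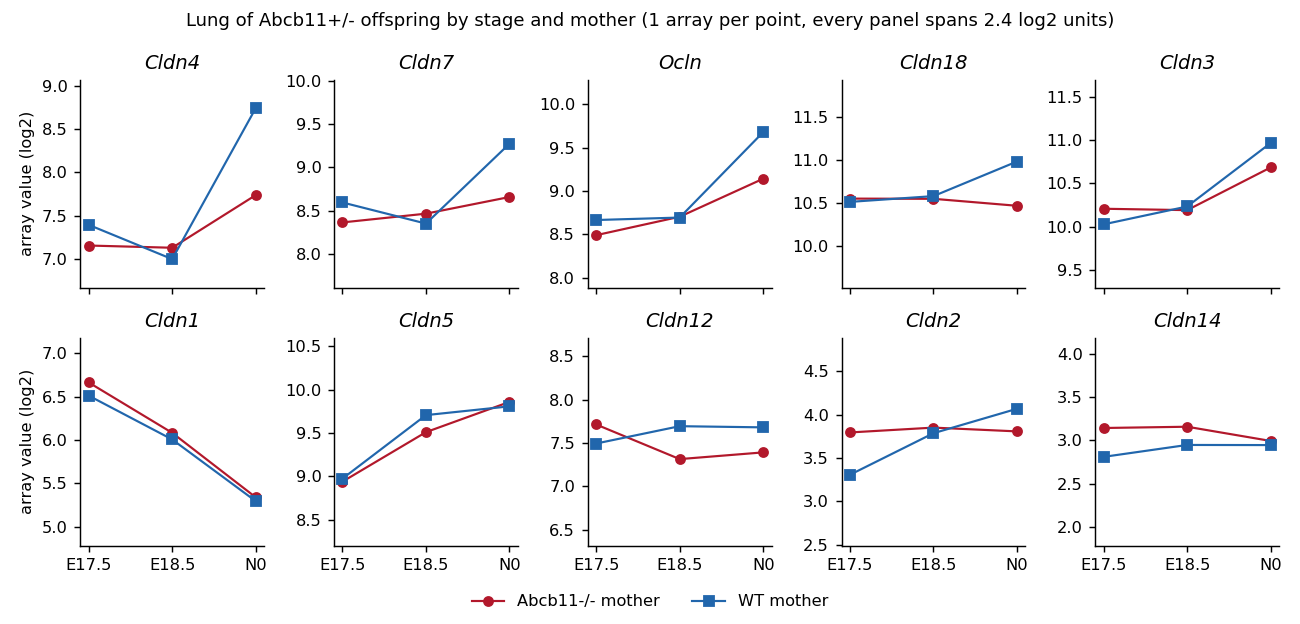
Deposited log2 values (vertical axis, 1 panel per gene, all panels of equal span) in lung at E17.5, E18.5 and N0, with circles for offspring of an Abcb11-/- mother and squares for those of a WT mother, 1 array per point. Cldn1 is lower at each later stage on both lines, while Cldn4, Cldn7, Ocln, Cldn18 and Cldn3 are highest on the N0 array with a WT mother.

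The 4 members higher at N0 than at E18.5 at an unadjusted p under 0.05 were Cldn4, Ocln, Cldn3 and Cldn7, and in each the step was larger on the arrays with a WT mother. Cldn4 was at 7.15, 7.13 and 7.74 at E17.5, E18.5 and N0 with an Abcb11-/- mother, and at 7.39, 7.00 and 8.74 with a WT mother. The arrays before birth lay within 0.40 of each other, and both N0 arrays lay above them. The N0 minus E18.5 difference was 0.61 with an Abcb11-/- mother and 1.74 with a WT mother, and 1.18 in the model of both (SE 0.27, unadjusted p = 0.00531, adjusted p = 0.248, limma).

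Ocln was at 8.49, 8.70 and 9.14 with an Abcb11-/- mother and at 8.66, 8.69 and 9.68 with a WT mother over the same stages. Its N0 minus E18.5 difference was 0.44 with an Abcb11-/- mother and 0.99 with a WT mother. Cldn7 was at 8.36, 8.46 and 8.66 with an Abcb11-/- mother and 8.59, 8.35 and 9.27 with a WT mother. For Cldn7 these differences were 0.19 and 0.92, so that its N0 array with an Abcb11-/- mother barely passed the E17.5 array with a WT mother. Cldn3 was at 10.21, 10.19 and 10.68 with an Abcb11-/- mother and 10.03, 10.23 and 10.96 with a WT mother, with differences of 0.49 and 0.73. The limma differences of N0 against E18.5 over both mothers were 0.71 for Ocln (adjusted p = 0.264), 0.61 for Cldn3 (0.283) and 0.56 for Cldn7 (0.363).

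At 1.5-fold, 1 member (Cldn4) was higher at N0 than at E18.5 with an Abcb11-/- mother, beside 2.72% of all genes. With a WT mother the number was 4 (Cldn3, Cldn4, Cldn7 and Ocln), beside 5.03%. On both sides 1 member, Cldn1, was at least 1.5-fold lower at N0 (3.64% of all genes with an Abcb11-/- mother and 6.46% with a WT mother). The highest of all 6 lung arrays was N0 with a WT mother in 6 members (Cldn2, Cldn3, Cldn4, Cldn7, Cldn18 and Ocln) and in 20.9% of all genes.

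**Figure D4:**
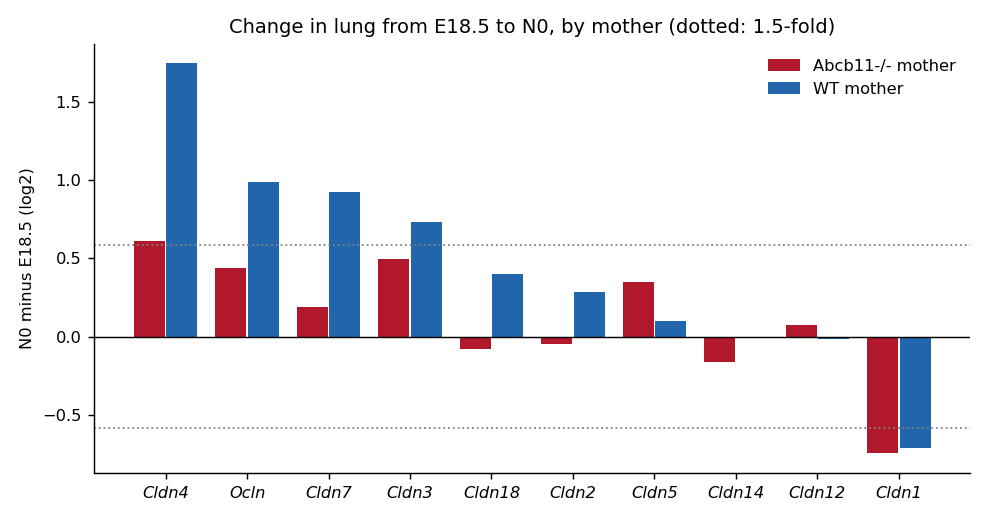
Log2 difference between N0 and E18.5 in lung (vertical axis) for each of the 10 genes, left bars with an Abcb11-/- mother and right bars with a WT mother, each from 1 array per stage, with dotted lines at 1.5-fold. The bars of Cldn4 are at 0.61 and 1.74, those of Ocln at 0.44 and 0.99, and those of Cldn1 at -0.74 and -0.71.

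Set against the WT mother at N0, 7 of 10 members were lower with the Abcb11-/- mother (6 with the probe sets of each gene averaged, where Cldn2 was at 0.073), where 48.3% of all genes were lower. The differences were -1.004 for Cldn4 (2.01-fold), -0.62 for Cldn7 (1.53-fold), -0.54 for Ocln (1.45-fold) and -0.51 for Cldn18 (1.43-fold). They were -0.29 for Cldn12, -0.28 for Cldn3 and -0.26 for Cldn2, and between 0.04 and 0.05 for Cldn1, Cldn5 and Cldn14. Thus 2 members were at least 1.5-fold lower and 0 higher at N0 (2.88% and 4.16% of all genes), 1 of them at least 2-fold lower (0.485%). This was Cldn4, which was just short of 2-fold after median centring (-0.998). The median of the 10 was -0.29 beside 0.0104 over all genes. There is 1 array per mother and stage, so these differences have no replicate check.

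Cldn18, the main claudin of alveolar type I cells, was at 10.55, 10.55 and 10.47 at E17.5, E18.5 and N0 with an Abcb11-/- mother, and at 10.52, 10.58 and 10.98 with a WT mother. Its 5 lower values lay within 0.11 of each other and the N0 array with a WT mother lay 0.40 above the highest of them. The second Cldn18 probe set was 1.54-fold apart at N0, on the other side of the 1.5-fold mark. The 2 probe sets of Cldn3 were also alike there, with differences of -0.28 and -0.33. For Cldn2 the second probe set was dim and of opposite sign (0.41).

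Before birth fewer members were 1.5-fold apart between the mothers than at N0. At E18.5, 0 members were 1.5-fold apart, beside 2.13% of all genes higher and 1.26% lower, and the differences ran from -0.38 (Cldn12) to 0.21 (Cldn14). At E17.5, 0 members were 1.5-fold apart as well, beside 3.47% higher and 3.55% lower, with differences from -0.24 (Cldn4) to 0.49 (Cldn2). The E17.5 array with an Abcb11-/- mother is the one with raised hepatocyte and skeletal muscle markers (above), whose part in these differences was not tested. Over all 3 stages the mother term was largest for Cldn4 at -0.37 (SE 0.22, adjusted p = 0.928, limma). A fit of whether the mother's difference at N0 departs from that before birth, which leaves 1 residual degree of freedom, gave -0.95 for Cldn4 (unadjusted p = 0.0196, adjusted p = 0.961, limma). In simulated data this fit found 0% of genes set 2-fold or 4-fold apart, and thus had no power at either size there.

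The remaining members varied little or were close to the array median in lung. Cldn12 was at 7.71, 7.31 and 7.39 with an Abcb11-/- mother and 7.49, 7.69 and 7.68 with a WT mother, with no order common to both mothers. Cldn2 was at 3.79, 3.85 and 3.81 with an Abcb11-/- mother and 3.31, 3.79 and 4.07 with a WT mother. Cldn14 was dim on every lung array, between 2.81 and 3.16.

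Among 14 other claudins on the array, 0 passed the adjusted test in liver or in the lung contrasts. In liver the largest difference among them was that of Cldn23 (0.86), with values from 3.00 to 4.05 in Abcb11-/- and 2.66 to 2.84 in WT livers. At an unadjusted limma p under 0.05 in lung, 0 were higher and 1 lower at E18.5 than at E17.5 (7.02% and 5.79% of all genes). For N0 against E18.5 the counts were 1 and 0 (5.19% and 7.08%), and for the mother over all stages 0 and 1 (2.76% and 2.31%). Cldn23, which forms junctions with other claudins, was at 4.72 with an Abcb11-/- mother and 6.35 with a WT mother at N0, and at 3.75 and 3.58 at E18.5, the same order as Cldn4. Of the 14, 2 were at least 1.5-fold higher and 2 lower at N0 with an Abcb11-/- mother (4.16% and 2.88% of all genes). Cldn23 was named after its values were seen, as were Cldn8 (3.99 with an Abcb11-/- mother and 5.07 with a WT mother at N0) and, the other way round, Cldn10 (8.75 with an Abcb11-/- mother and 7.86 with a WT mother) and Cldn13 (4.37 with an Abcb11-/- mother and 3.28 with a WT mother). Of the 32 tight junction partner genes, 1 was at least 1.5-fold higher and 1 lower at N0 with an Abcb11-/- mother (median -0.15). Over all genes these shares were 4.16% and 2.88%. With a WT mother 5 of the 32 were at least 1.5-fold higher at N0 than at E18.5 (5.03% of all genes), and with an Abcb11-/- mother 1 was (2.72%). The limma fits called 0 of the partner genes in lung. At an unadjusted limma p under 0.05, 4 were higher and 0 lower at E18.5 than at E17.5 (7.02% and 5.79% of all genes). At N0 against E18.5 the counts were 5 higher and 0 lower (5.19% and 7.08%). With an Abcb11-/- mother over all stages they were 0 higher and 3 lower (2.76% and 2.31%).

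Markers of the cell types that carry these claudins were compared on the same arrays. Over all genes, 4.16% were at least 1.5-fold higher and 2.88% lower at N0 with an Abcb11-/- mother. At N0 the median log2 difference with an Abcb11-/- mother was -0.21 over 8 type I cell markers and 0.03 over 9 type II cell markers, with 0 of either list 1.5-fold apart. Over 7 general lung epithelial genes, Epcam and Cdh1 among them, it was 0.03, with 1 at least 1.5-fold lower. Over 6 club and ciliated cell markers it was -0.27, with 2 at least 1.5-fold lower. Over 7 heart muscle markers it was 0.84, with 4 at least 1.5-fold higher, and their summed signal was 2249 with an Abcb11-/- mother and 1544 with a WT mother. Of 10 hepatocyte markers 3 were at least 1.5-fold higher and 0 lower (median 0.21), and of 7 leukocyte and macrophage markers 1 was higher and 2 lower (median 0.19). The part of these lists in the values of Cldn4, Cldn7, Ocln and Cldn18 was not tested.

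The gene patterns most like that of Cldn4 over the 6 lung arrays were sought among 2431 genes with a range of at least 1. By Pearson's r, a description over 6 arrays that share their stages, these were Trarg1 (0.999), Nmb (0.996) and Apobec1 (0.984), and 37 genes had an r above 0.95. Trarg1 ran from 3.30 to 4.81, Nmb from 4.64 to 6.61 and Apobec1 from 3.91 to 4.91.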

How the data were processed

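RNA was labelled by the Affymetrix 3′ IVT Express protocol. The authors summarized the arrays by robust multi-array averaging (RMA). Partek 6.5 is among the tools in the submitters' notes. The deposited values are log2 signals, with no detection p-value. Precision is limited by how few arrays there are. Of 45037 probe sets, 28898 had 1 gene name, 551 several and 15588 none. Of the named ones, 28689 matched RefSeq (GRCm38.p6) by gene number, giving 17097 genes, of which 7180 had several probe sets. Genotype in liver, and stage and mother in lung, were fitted with limma 3.58.1 in R 4.3.3 (lmFit, eBayes, Benjamini-Hochberg over all genes). The members and gene lists were chosen with earlier results of these data known. All members are named. Of other junction genes, the largest differences among those called are named, and up to 4 of each marker list. Of the bile duct markers, Krt19 and those that were lower are named as well. Of the lists, 32 of 34 tight junction partners, 14 of 20 other claudins, 10 of 14 bile duct markers and 7 of 8 heart muscle markers were measured. Sequences are from RefSeq. On simulated data with 200 changed genes among 17097, the liver fit found 78% of genes set 2-fold apart and 95% of genes set 4-fold apart, with 8 false calls. Other assays of the study were not used here.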

Additional observations from a re-analysis of the deposited data

How the results depend on the processing

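The direction of Ocln in liver held under every alternative run, as did that of Cldn7, except that the filters on low values removed Cldn7, and the call of Ocln held for the choice of probe set, filters on low values, quantile normalization, median centring and the variance prior. Same-numbered livers did not deviate together (correlations of their deviations -0.04, -0.04 and -0.14), so the numbers do not pair them. With the replicate block, members called higher in Abcb11-/- livers were 0 (Ocln adjusted p = 0.0521, limma), partner genes 3, and all genes 429 higher and 242 lower, against 740 and 498. The methods' two-tailed test gave 3 members (Ocln, Cldn7, Cldn4) and 11 partner genes higher and 1 partner gene lower without adjustment, with 1685 genes higher and 1444 lower in all, and after adjustment 0 members, 0 partner genes, and 26 genes higher and 23 lower. Leaving out 1 liver at a time gave 0 to 4 members and 3 to 11 partner genes higher, 0 to 1 partner genes lower, and 315 to 888 genes higher and 177 to 621 lower in all. In lung, 1 member, Cldn5, was called at E18.5 against E17.5 with a trended and robust prior. The share of all genes called with that prior is not given here, so this call cannot be set against it. At 2-fold, 1 member was lower at N0 with an Abcb11-/- mother (0.485% of all genes). With all probe sets averaged, small differences changed sign to 0.087 (Cldn18, liver), -0.036 (Cldn18) and -0.0083 (Cldn3, both E18.5 against E17.5), and -0.0052 (Cldn2, N0 against E18.5). The mother's difference turned to 0.073 for Cldn2 at N0, 0.0011 for Cldn3 at E18.5, and -0.0002 for Cldn12 and -0.017 for Cldn18 at E17.5. Leaving out 1 array at a time turned the sign of 13 uncalled differences. These ran from -0.23 to 0.13 for Cldn5 in liver. For E18.5 against E17.5 they ran from -0.38 to 0.18 for Cldn12, -0.026 to 0.18 for Cldn14, -0.12 to 0.19 for Cldn18, -0.026 to 0.56 for Cldn2, -0.076 to 0.27 for Cldn3, -0.59 to 0.17 for Cldn4, -0.34 to 0.20 for Cldn7 and -0.062 to 0.30 for Ocln. For N0 against E18.5 they ran from -0.14 to 0.20 for Cldn12, -0.19 to 0.029 for Cldn14, -0.098 to 0.42 for Cldn18 and -0.15 to 0.39 for Cldn2. The cause of these shifts was not tested. The fit of the mother at N0 against before birth, and the filter at a mean log2 value of 6 for the mother's differences, were chosen after seeing the data. That filter removed Cldn1, Cldn2 and Cldn14 and left the differences of Cldn4 and Cldn7 at N0 as they were. It therefore adds no separate check of them, and the share of all genes past 1.5-fold under it is not given here.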
